A study of Mus musculus with 18 samples.

Results

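The microRNAs (miRNAs) mmu-miR-132-3p, mmu-miR-132-5p, mmu-miR-212-3p and mmu-miR-212-5p are the arms of a tandem pair of mouse hairpins. They were taken by name from tables of 1431 mature miRNAs, so 4 of 1431 listed miRNAs are described. The rule names them by their hairpins and uses no measured value, although earlier results of these data were known when it was written. All 4 were among the 642 miRNAs with enough counts to be tested between organs. Small RNA was sequenced from male C57BL/6 mice aged 8 to 12 weeks, described by the submitters as normal and kept on a light and dark cycle. The 18 libraries were 3 each of left eye, right eye, left lung, right lung, left testicle and right testicle, with no treatment and no mutant allele in any group. Which libraries, if any, came from the same mouse is not stated, nor is the time of day or the light before dissection. P-values therefore measure the spread between these libraries.

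Both hairpins are cut from 1 transcript whose promoter carries sites for CREB, a transcription factor that neuronal activity switches on, and in mouse neurons their level rises after synaptic stimulation. The 3p arms are the best known products. They repress mRNAs such as that of the GTPase-activating protein p250GAP, which restrains dendrite growth. In the mouse suprachiasmatic nucleus, the brain's clock, miR-132 is induced by light, and miR-132 also takes part in vessel growth and immune signalling. The 5p arms are less studied.

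The mature sequences are shown with the seed, bases 2 to 8 counted from the 5′ end, in capitals, since the seed decides which mRNAs a miRNA pairs with and so which members can share targets. All 4 matched RefSeq on build GRCm38.p6, the build that the submitters' processing notes name.
miR-132-3p: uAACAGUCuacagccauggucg
miR-212-3p: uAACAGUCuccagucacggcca
miR-132-5p: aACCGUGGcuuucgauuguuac
miR-212-5p: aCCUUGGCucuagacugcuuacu
The 3p arms share the seed AACAGUC, and no other mature miRNA in the RefSeq table has it. They are identical at 17 of 22 positions, including the first 9. With the base of miR-212-3p first and positions counted from the 5′ end, the differences are C10A, U14C, C17U, C20U and A22G. The 5p arms have different seeds, ACCGUGG in miR-132-5p and CCUUGGC in miR-212-5p, and are identical at 9 of 22 positions. The longest run of bases shared with any miRNA outside the pair was 10 for miR-132-3p, 8 for miR-132-5p and 9 for each miR-212 arm. The treatment of reads that match more than 1 miRNA is not stated. The hairpins are shown with the mature arms in capitals, 5p arm first, to place the arms that the counts compare.
Mir212: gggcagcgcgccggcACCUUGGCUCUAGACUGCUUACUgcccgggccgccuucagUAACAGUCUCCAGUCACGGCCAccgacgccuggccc
Mir132: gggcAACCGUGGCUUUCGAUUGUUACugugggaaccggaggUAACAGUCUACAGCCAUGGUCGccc
On the plus strand of GRCm38.p6, Mir212 lies at chr11:75173388-75173478 and Mir132 at chr11:75173682-75173747, with 203 bases between them. Within them miR-212-5p is at chr11:75173403-75173425, miR-212-3p at chr11:75173443-75173464, miR-132-5p at chr11:75173686-75173707 and miR-132-3p at chr11:75173723-75173744. The GENCODE annotation places both hairpins in intron 1 (chr11:75172598-75173977) of the 3-exon noncoding transcript of 1700016P03Rik, on the same strand.

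**Figure D1:**
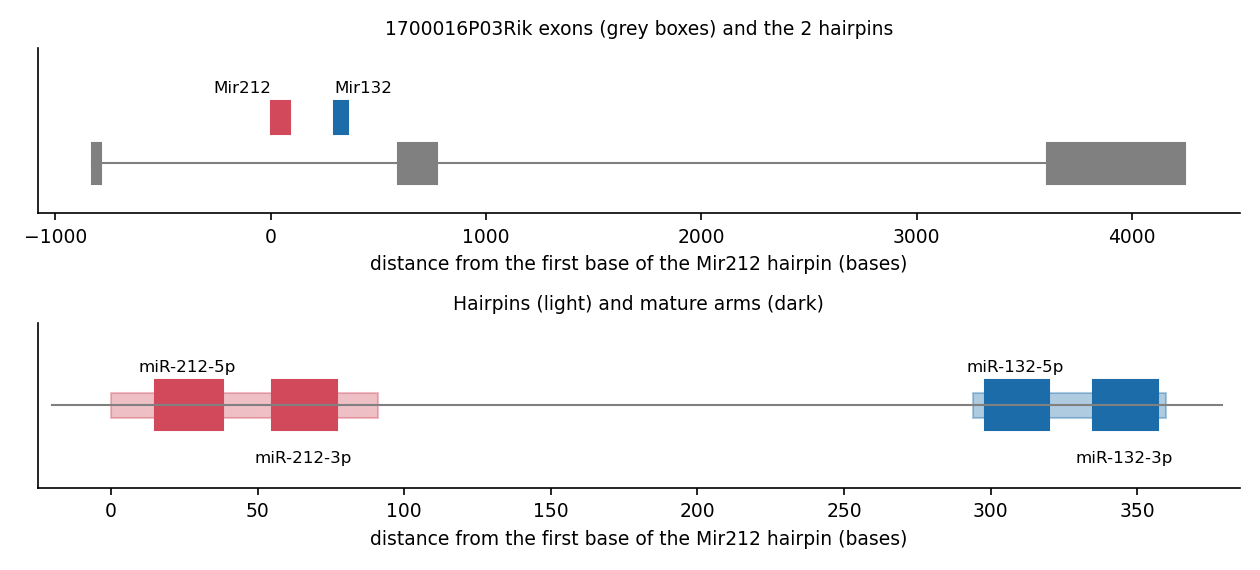
Map of the locus in bases from the first base of the Mir212 hairpin, with 1700016P03Rik exons as grey boxes (top) and the hairpins with their mature arms (bottom). Both hairpins lie within intron 1 and together span 360 bases.

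Depth and identity of the libraries were read from the same tables. Total counts were 2451484 to 2680204 in eye libraries, 2538402 to 2790471 in lung libraries and 952608 to 1893132 in testicle libraries. In counts per 1e6 counts (CPM), the 3 counts that a count of 0 allows are 1.12 to 1.22 CPM in eyes, 1.08 to 1.18 CPM in lungs and 1.58 to 3.15 CPM in testicles, for counting error only. Marker miRNAs were high in the organs the labels name. The summed level of 5 retinal miRNAs was 166000 to 215000 CPM in eyes, 2580 to 6350 CPM in lungs and 12900 to 23700 CPM in testicles. That of 6 miRNAs listed for germ cells was 323 to 386 CPM in eyes, 8650 to 20100 CPM in lungs and 111000 to 182000 CPM in testicles. The germ cell list was thus not confined to testicle. For 5 lung epithelial miRNAs the sum was 4160 to 9060 CPM in eyes, 22800 to 32300 CPM in lungs and 2090 to 3610 CPM in testicles. Whole organs were sampled, so more cells of a type cannot be told apart from more RNA per cell. Levels below are CPM scaled by the trimmed mean of M-values (TMM). They compare 1 miRNA between libraries, while ratios between miRNAs are ratios of counts, which also carry any difference in how efficiently each miRNA is captured.

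All 4 members were higher in eye than in lung, by 5.23- to 8.17-fold, and 3 of 4 were higher in eye than in testicle, by 3.78- to 10.5-fold. The exception was miR-132-5p, which did not pass the test between eye and testicle and was lower in lung than in testicle. Without right eye 2, the eye over lung log2 fold changes were 2.26 for miR-132-3p, 1.64 for miR-132-5p, 1.86 for miR-212-3p and 1.54 for miR-212-5p. These were lower than with all libraries, though all were still called by edgeR. The median of all tested miRNAs moved to -0.54, so the whole comparison shifted. With all libraries kept and left testicle 1 as TMM reference, the 4 values were similarly low. They were 2.33, 1.71, 1.88 and 1.68 in the same order, all called, with the median at -0.51. Over all tested miRNAs, 35.4% were called higher in eye than in lung and 40.2% higher in eye than in testicle, so such a call was common in these organs. Even in eye the members were of middling level among the tested miRNAs, in an order that also carries differences in capture between miRNAs. Of the 642 tested miRNAs ordered by mean level in eye, miR-212-3p stood at place 194, miR-212-5p at 235, miR-132-5p at 265 and miR-132-3p at 290. The 4 together made up 0.0257 to 0.0395% of the counts of an eye library, 0.00424 to 0.00666% of a lung library and 0.00579 to 0.00896% of a testicle library.

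**Figure D2:**
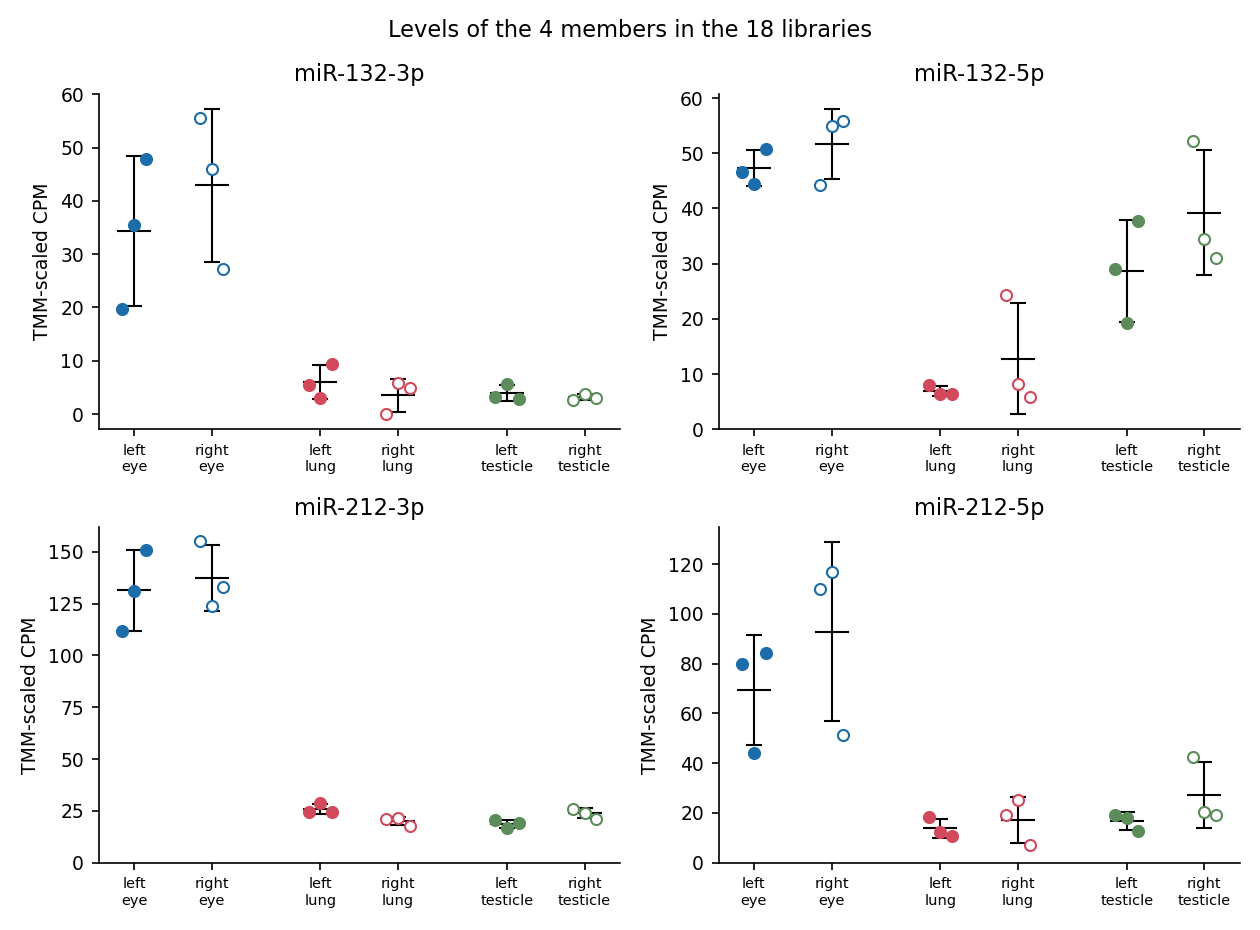
TMM-scaled CPM of each member in every library, with left organs as filled and right organs as open circles, and the mean ± SD of each group of 3 in black. The eye libraries lie above every lung library for all 4 members, while miR-132-5p in testicle reaches the eye range.

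MiR-212-3p, a carrier of the shared 3p seed, had the highest mean of the 4 in eye and in lung. It had 112, 131 and 151 CPM in left eyes and 155, 124 and 133 CPM in right eyes. Lungs had 24.3, 28.7 and 24.4 CPM on the left and 21.2, 21.6 and 17.8 CPM on the right. Testicles had 20.4, 16.8 and 19.3 CPM on the left and 26.1, 24.2 and 21.3 CPM on the right. Every eye was thus far above every lung and every testicle, while lung and testicle values overlapped. The means were 134 ± 16.2 CPM in eye, 23.0 ± 3.71 CPM in lung and 21.3 ± 3.36 CPM in testicle (SD, n = 6 each). The log2 fold change was 2.55 (SE 0.16) for eye over lung, with an edgeR adjusted p of 4.5e-10, and 2.66 (SE 0.16) for eye over testicle, with an edgeR adjusted p of 2.2e-10. Lung and testicle differed by 0.11 on the log2 scale (SE 0.16), with an edgeR adjusted p of 0.54.

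MiR-132-3p, the member best known from neurons, had the lowest summed counts of the 4 in each organ. It had 19.7, 35.4 and 47.9 CPM in left eyes and 55.5, 46.0 and 27.3 CPM in right eyes. Lungs had 5.45, 3.06 and 9.40 CPM on the left and 0, 5.76 and 4.90 CPM on the right. Testicles had 3.22, 5.60 and 2.90 CPM on the left and 2.70, 3.82 and 3.04 CPM on the right. The eyes ranged widely, yet the lowest, left eye 1, was above the highest lung, left lung 3, and above all testicles. The counts behind these levels were 55 to 148 in an eye library, 0 to 32 in a lung library and only 3 to 9 in a testicle library, where the level is near the 3 counts that a count of 0 allows. The means were 38.6 ± 13.6 CPM in eye, 4.76 ± 3.12 CPM in lung and 3.55 ± 1.08 CPM in testicle (SD, n = 6 each). On the log2 scale, eye over lung was 3.03 (SE 0.45; edgeR adjusted p = 1.4e-05) and eye over testicle 3.39 (SE 0.50; edgeR adjusted p = 1.1e-05). Lung over testicle gave 0.36 (SE 0.54; edgeR adjusted p = 0.56), and 1.27 (edgeR adjusted p = 0.004) without left lung 2 and right lung 1.

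The 2 arms that share a seed can be summed, since they can pair with the same seed matches. Summed, miR-132-3p and miR-212-3p reached 173 ± 28.2 CPM in eye, 27.8 ± 5.0 CPM in lung and 24.9 ± 2.84 CPM in testicle (SD, n = 6 each). MiR-212-3p gave 72.9 to 85% of the seed's counts in eyes, 72.2 to 100% in lungs and 75.0 to 90.6% in testicles. It exceeded miR-132-3p in 18 of 18 libraries. Summed over 6 libraries, it had 2129 counts against 613 in eye, 417 against 89 in lung and 161 against 28 in testicle.

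MiR-212-5p, the other arm of the miR-212 hairpin, followed the 3p arms between eye and the other organs, with a wider spread. It had 80.0, 44.1 and 84.2 CPM in left eyes and 110, 117 and 51.5 CPM in right eyes. Lungs had 18.2, 12.5 and 10.6 CPM on the left and 19.3, 25.2 and 7.05 CPM on the right. Testicles had 19.3, 18.1 and 12.6 CPM on the left and 42.3, 20.4 and 19.0 CPM on the right. The lowest eye, left eye 2 at 44.1 CPM, was just above the highest testicle, right testicle 1 at 42.3 CPM. The means were 81.2 ± 29.6 CPM in eye, 15.5 ± 6.64 CPM in lung and 21.9 ± 10.3 CPM in testicle (SD, n = 6 each). The log2 fold change was 2.39 (SE 0.33; edgeR adjusted p = 6.9e-06) for eye over lung and 1.92 (SE 0.34; edgeR adjusted p = 6.2e-05) for eye over testicle. For lung over testicle it was -0.47 (SE 0.34; edgeR adjusted p = 0.22).

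MiR-132-5p, the arm opposite miR-132-3p, had another pattern, with testicle close to eye and lung apart. It had 46.6, 44.5 and 50.8 CPM in left eyes and 44.3, 54.9 and 55.8 CPM in right eyes. Lungs had 7.99, 6.42 and 6.46 CPM on the left and 24.3, 8.28 and 5.82 CPM on the right. Testicles had 29.0, 19.3 and 37.7 CPM on the left and 52.2, 34.4 and 31.1 CPM on the right. Right lung 1 lay above the lowest testicle and right testicle 1 above the lowest eyes, so that only eye and lung did not overlap. The means were 49.5 ± 5.12 CPM in eye, 9.88 ± 7.14 CPM in lung and 33.9 ± 10.9 CPM in testicle (SD, n = 6 each). On the log2 scale, eye over lung was 2.39 (SE 0.30; edgeR adjusted p = 2.1e-06). Eye over testicle gave 0.57 (SE 0.29; edgeR adjusted p = 0.081), which did not pass the threshold. That call depended on scaling, since it passed at 0.85 with library sizes alone and at 1.04 with left lung 1 as the TMM reference, and it passed at an edgeR adjusted p of 0.047 without right lung 3.

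Lung over testicle gave -1.82 (SE 0.30; edgeR adjusted p = 4.2e-05) for miR-132-5p, 3.53-fold lower in lung, and it was the only one of 4 members called lower there. The background was 49.1% of tested miRNAs called lower in lung, and the 642 had a median of -0.90 on the log2 scale in this comparison. Other scalings moved that median as far as -0.31, where 267 were called lower and 233 higher in lung, against 315 and 176 here. Relative to the median, miR-132-5p was at -0.93, miR-212-5p at 0.43, miR-212-3p at 1.01 and miR-132-3p at 1.25. The call for miR-132-5p held under every scaling tried, at -1.86 to -1.25 over all alternatives that left out no single library. The absence of a call for miR-212-3p did not hold, since it was called higher in lung at 0.50 with library sizes alone and at 0.74 without right eye 2. With left lung 2 and right lung 1 left out, miR-212-3p was called higher in lung at 0.53, as was miR-132-3p, while miR-132-5p was at -1.75. Without right eye 2, miR-132-5p was at -1.18, still called, with the median of all tested miRNAs at -0.29.

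**Figure D3:**
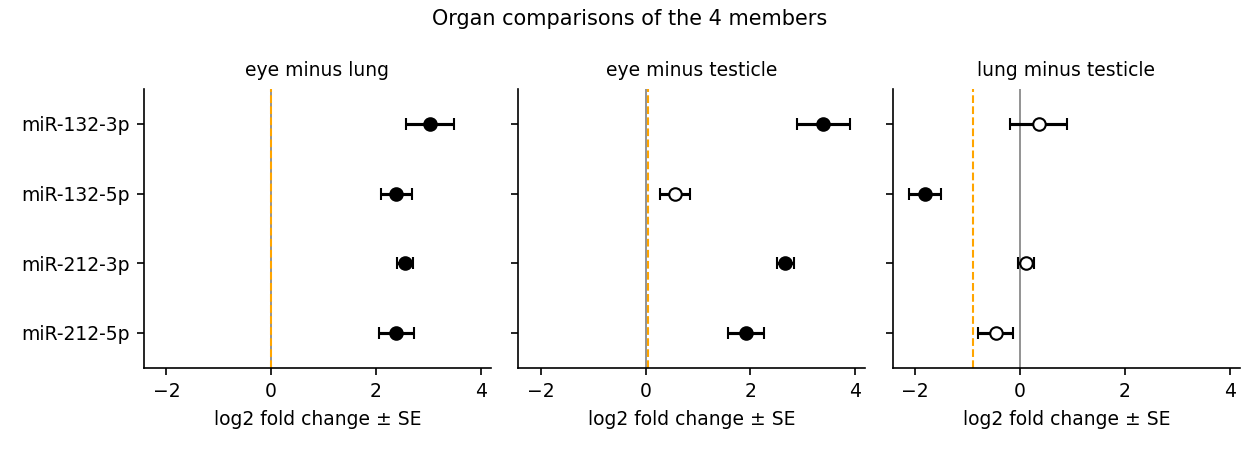
edgeR log2 fold change ± SE of each member between organs, with filled points for an adjusted p under 0.05, the grey line at 0 and the dashed orange line at the median of all 642 tested miRNAs. In lung minus testicle the median lies at -0.90, and miR-132-5p at -1.82 is the filled point.

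Groups that did not overlap were also common in the whole table. Every eye was above every lung for 31.3% of tested miRNAs and for 4 of 4 members. Every eye was above every testicle for 33.0% of tested miRNAs and for 3 of 4 members. The median log2 fold change of the members was 2.47 for eye over lung, against 0.00 for all tested miRNAs, and 2.29 for eye over testicle, against 0.05. For lung over testicle it was -0.18, against -0.90.

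Ratios within a library are free of scaling, and they showed that the arms of miR-132 were in different proportion in eye and testicle. MiR-132-5p made up 44.4 to 70.3% of the miR-132 counts in eyes, 40.7 to 100% in lungs and 77.5 to 95.1% in testicles. Summed over 6 libraries, the 5p and 3p counts were 782 and 613 in eye, 170 and 89 in lung and 250 and 28 in testicle. The mean log2 ratio of 5p to 3p, with 0.5 added to each count, was 0.43 ± 0.59 in eye, 1.46 ± 2.75 in lung and 3.09 ± 0.77 in testicle (SD, n = 6 each). The eye ratio was 6.30-fold lower than the testicle ratio, with no overlap of libraries, at a log2 difference of -2.66. An exact two-sided permutation test gave p = 0.0022, the smallest it can give with 6 against 6 libraries, and 0.026 after adjustment over the 12 ratio tests. The direction was the same without any 1 library, at -2.93 to -2.46, while the adjusted p of the exact tests ran to 0.052. The 3 to 9 counts of miR-132-3p in each testicle library make that ratio imprecise. In left testicle 1, 27 of 30 miR-132 counts were 5p, or 90.0% with an exact Clopper-Pearson 95% interval that starts at 73.5%.

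Lung stood between, and its mean rested on right lung 1. That library had 63 counts of miR-132-5p, against 19 to 23 in the other 5 lungs, and 0 counts of miR-132-3p, against 10 to 32. With it, lung over testicle differed by -1.63 (exact permutation p = 0.19, adjusted 0.33). Without it, the difference was -2.73 with an adjusted p of 0.013 by the exact permutation test, and the eye over lung difference was 0.08 in place of -1.03. Right lung 1 also had the fewest miRNAs detected of the lungs, 696 against up to 852. Its summed retinal miRNAs were 6350 CPM and its summed lens and cornea miRNAs 160 CPM, the highest of the lungs, whose medians were 3780 and 36.9 CPM. Right lung 1 was not the highest lung in the other lists that were high in eye. Its neuronal sum was 290 CPM, against 407 CPM in left lung 2. Its striated muscle sum was 114 CPM, against a lung median of 265 CPM. It was lowest of the lungs in the sum of 5 lung epithelial miRNAs, 22800 CPM against a median of 30200 CPM. It was highest in the sums of 6 leukocyte miRNAs, 29700 CPM against a lung median of 21700 CPM, and of 3 smooth muscle miRNAs, 46100 CPM against 36600 CPM. Their part in the result was not tested.

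The arms of miR-212 were closer to equal. MiR-212-5p made up 25.2 to 48.5% of miR-212 counts in eyes, 28.4 to 53.8% in lungs and 39.4 to 61.8% in testicles. The mean log2 ratio of 5p to 3p was -0.80 ± 0.57 in eye, -0.67 ± 0.65 in lung and -0.05 ± 0.43 in testicle (SD, n = 6 each). Eye against testicle differed by -0.76, which did not pass after adjustment (exact permutation p = 0.026, adjusted 0.078), and lung against testicle by -0.62 (exact permutation p = 0.080, adjusted 0.16). Without right eye 2, or without left testicle 3, the adjusted p of the exact test for eye against testicle was 0.039.

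The hairpins were also compared arm by arm. The mean log2 ratio of miR-212-5p to miR-132-5p was 0.63 ± 0.58 in eye, 0.72 ± 0.68 in lung and -0.66 ± 0.50 in testicle (SD, n = 6 each). MiR-212-5p was above miR-132-5p in 4 of 6 eyes, 5 of 6 lungs and 0 of 6 testicles. The difference was 1.29 for eye over testicle (exact permutation p = 0.0043, adjusted 0.026) and 1.38 for lung over testicle (exact permutation p = 0.0065, adjusted 0.026), while eye over lung was -0.09 (exact permutation p = 0.80, adjusted 0.87). Leaving out 1 library ended the call in 3 of 18 cases for eye over testicle and in 8 of 18 for lung over testicle. Each of these had an adjusted p of 0.052 in the exact test. The 18 include the 6 libraries of the organ not compared, whose removal leaves the difference unchanged. For the 3p arms the mean log2 ratio of miR-212-3p to miR-132-3p was 1.87 ± 0.44 in eye, 2.86 ± 2.02 in lung and 2.48 ± 0.51 in testicle (SD, n = 6 each). Eye over testicle was -0.61 (exact permutation p = 0.052, adjusted 0.12), and it passed, at an adjusted p of 0.026, in the exact test without left testicle 2. The 3 ratio differences that passed over the 12 tests thus all involved testicle and miR-132-5p.

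**Figure D4:**
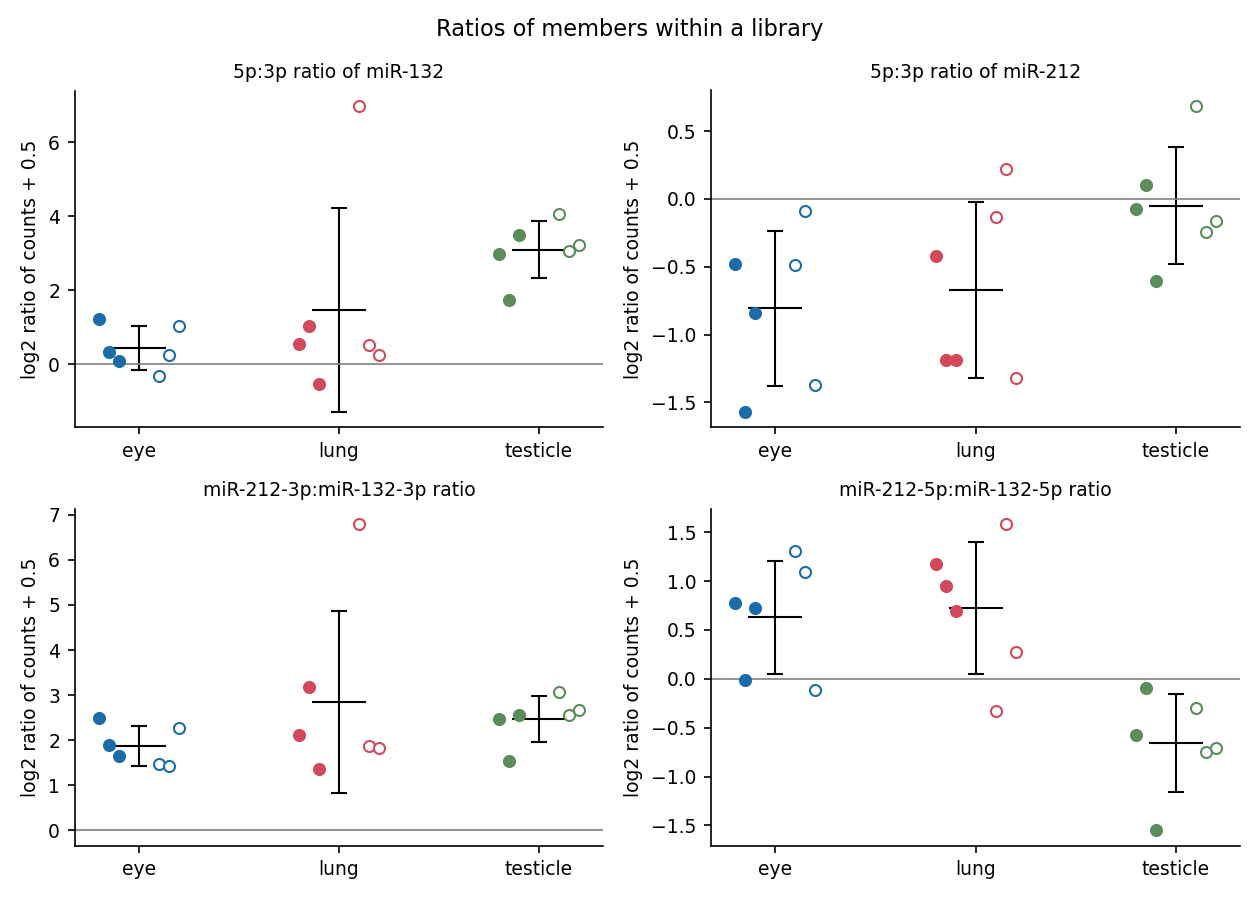
Log2 ratio of 2 members in each library, with 0.5 added to each count, left libraries filled and right libraries open, and the mean ± SD of 6 libraries in black. The testicles lie above the eyes in the miR-132 arm ratio and below 0 in the ratio of the 5p arms, and right lung 1 is the high open point in both left panels.

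The spread between eyes is given as a description, with no test, since separate eyes can differ beyond counting error. The coefficient of variation over the 6 eyes was 36.5% for miR-212-5p and 35.2% for miR-132-3p, with counting error alone at 6.83% and 9.89%. It was 12.1% for miR-212-3p and 10.3% for miR-132-5p, with counting error at 5.31% and 8.76%. MiR-132-3p was lowest in left eye 1 and right eye 3, and miR-212-5p in left eye 2 and right eye 3. Left eye 1, at 19.7 CPM of miR-132-3p, also had the highest sum of 4 striated muscle miRNAs, 10500 CPM, and the lowest sum of 9 neuronal miRNAs, 38800 CPM. Right eye 1, at 55.5 CPM of miR-132-3p, had the highest neuronal sum, 70700 CPM. Right eye 3, however, had 27.3 CPM of miR-132-3p with a neuronal sum of 68300 CPM. Left eye 3 and right eye 2 had 47.9 and 46.0 CPM of miR-132-3p with low neuronal sums of 45500 and 47900 CPM. In left eye 2 the values were 35.4 and 63400 CPM. The part of these sums in the differences was not tested.

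**Figure D5:**
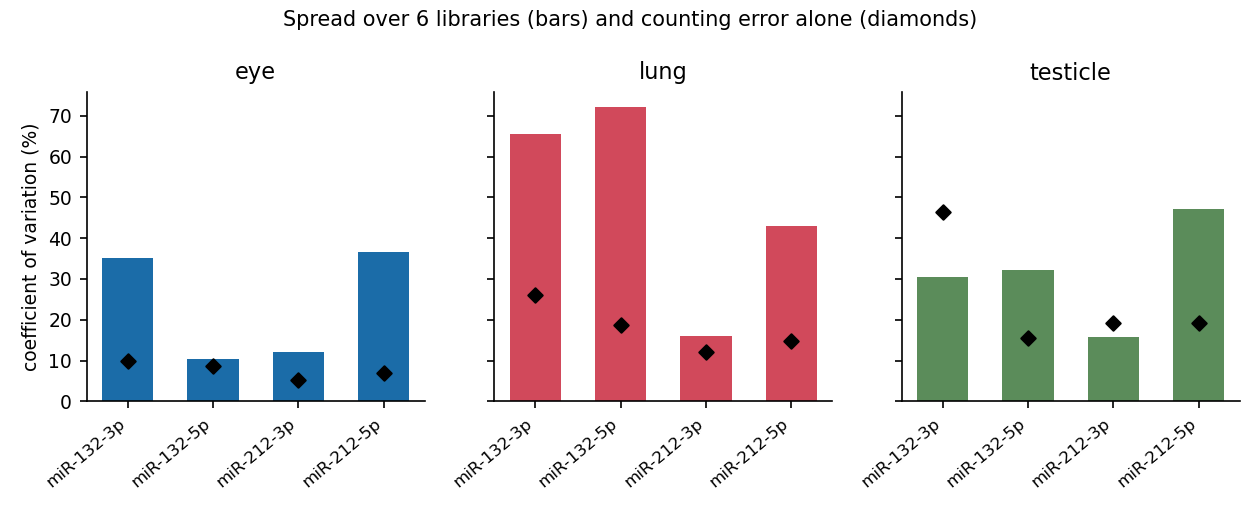
Coefficient of variation of TMM-scaled CPM over the 6 libraries of each organ (bars) and the value that counting error alone would give (diamonds), for each member. In eye, miR-132-3p and miR-212-5p stand at 35.2% and 36.5%, and miR-132-5p at 10.3%.

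No member differed between left and right in any organ by edgeR's quasi-likelihood test. The edgeR adjusted p-values were 0.98 for each member in eye, 0.91 in lung and 0.70 to 0.84 for the 3 members tested in testicle. The share of all tested miRNAs called was 0% of 487 in eye, 0% of 430 in lung and 0% of 464 in testicle. At an unadjusted p under 0.05, 18, 1 and 36 miRNAs passed in eye, lung and testicle, none of them a member, and DESeq2 called 1, 0 and 1, again no member. In eye, left over right log2 fold changes were -0.06 (SE 0.18) for miR-212-3p, -0.12 (SE 0.21) for miR-132-5p, -0.32 (SE 0.37) for miR-132-3p and -0.41 (SE 0.36) for miR-212-5p. In lung, the largest was -1.02 (SE 0.63) for miR-132-5p, which was lower in all 3 left lungs than in right lung 1 and overlapped the other 2 right lungs. MiR-212-3p did not overlap between sides in lung, at 25.8 ± 2.53 CPM on the left and 20.2 ± 2.11 CPM on the right (SD, n = 3 each). It did not overlap in testicle either, in the other direction, at 18.8 ± 1.84 CPM on the left and 23.9 ± 2.43 CPM on the right (SD, n = 3 each). On library totals alone the testicle sides overlapped, at 16.5 to 19.9 CPM on the left and 16.5 to 20.1 CPM on the right. How many of all tested miRNAs had sides that did not overlap was not counted. The lack of overlap therefore cannot be called particular to miR-212-3p. The log2 fold changes of miR-212-3p, from the fit of each organ with its own scaling, were 0.26 in lung (SE 0.35; edgeR adjusted p = 0.91). In testicle the value was -0.15 (SE 0.21; edgeR adjusted p = 0.84). MiR-132-3p had too few counts in testicle to be tested between sides. The difference of the left-right differences between organs, tested directly by edgeR, was called for 0% of the 642 miRNAs, with 21 at an unadjusted p under 0.05 and an adjusted p of 1 for each member.

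Other miRNAs linked to neurons give the setting of these levels. Of 9 neuronal and synaptic miRNAs, 9 were called higher in eye than in lung, 7 higher and 2 lower in eye than in testicle, and 7 lower and none higher in lung than in testicle. MiR-124-3p, the most abundant miRNA of mature neurons, averaged 41200 ± 12500 CPM in eye, 50.5 ± 53.2 CPM in lung and 1580 ± 300 CPM in testicle (SD, n = 6 each). Its log2 fold change was 9.69 (SE 0.80) for eye over lung and 4.69 (SE 0.64) for eye over testicle, with edgeR adjusted p-values of 1.2e-08 and 3.9e-06. MiR-9-5p, a regulator of neural progenitors, averaged 8230 ± 1010 CPM in eye, 11 ± 4.09 CPM in lung and 401 ± 25 CPM in testicle (SD, n = 6 each). The 2 lower in eye than in testicle, named after their values were seen, were miR-138-5p at -0.79 and miR-128-3p at -0.53. The log2 fold changes of the members between eye and lung, 2.39 to 3.03, stood beside 2.44 to 10 for the 9 listed miRNAs.

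Profiles were compared over the 18 libraries as centred log2(CPM + 1), with the root mean square (RMS) difference as the measure. This is a description with no test, in which the added 1 draws miRNAs of low level together and flattens their fold changes. The nearest to miR-212-3p were miR-412-3p at 0.29 and miR-700-3p at 0.30, followed by miR-9768-5p, miR-592-5p and miR-3059-5p. Apart from miR-700-3p, these averaged 4.88 to 6.38 CPM in eye and at most 0.271 CPM in lung and in testicle. Their nearness to a miRNA at 134, 23.0 and 21.3 CPM in eye, lung and testicle thus depends on the added 1. The nearest to miR-132-3p were miR-700-5p at 0.46 and miR-31-3p at 0.53, followed by miR-666-3p, miR-216b-5p and miR-1249-3p. The nearest to miR-212-5p was miR-433-5p at 0.50, and its own 3p arm came next at 0.59, followed by miR-3076-3p, miR-412-3p and miR-154-5p. The nearest to miR-132-5p were miR-411-5p at 0.47, miR-30c-1-3p, miR-541-3p, miR-379-5p and miR-543-5p. Its own 3p arm stood only at place 291, at an RMS difference of 1.52.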

How the data were processed

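The deposited values are raw counts per mature miRNA, 1 table per library, not normalized, per the file headers. Per the labels' protocols, a spin-column kit gave total RNA and libraries followed a BGI-500 procedure. The build GRCm38.p6 is from the submitters' processing notes. Aligner, counting program and molecular identifiers were not given in the sources used here. Counts were scaled by TMM, filtered with filterByExpr and tested over all miRNAs with edgeR 4.0.16 (quasi-likelihood, 1 fit of 6 groups for organs, 1 fit per organ for sides, Benjamini-Hochberg threshold 0.05), in R 4.3.3. PCR copies may be counted as separate molecules, so an interval or floor covers counting error alone. Ratios were log2 of counts + 0.5, compared by exact permutation of 6 against 6 libraries (924 splits), adjusted over 12 tests. Tests were also run on simulated data, with level changes in random directions and normally distributed ratios. Those settings do not cover a shifted median such as that of lung over testicle, or ratios on few counts. Alternatives were DESeq2 1.42.0, other scalings, no filter, a replicate block, single sides and libraries left out. The members and all lists were chosen with earlier results of these data known. Named miRNAs are the members, the 5 nearest profiles of each, and abundant members of the neuronal list, with miR-138-5p and miR-128-3p added after their values were seen.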

Additional observations from a re-analysis of the deposited data

Results flagged for a closer look

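Among 24 sets of 6 libraries (4 levels and 4 ratios in each organ), 4 had 1 library far from the other 5. The measure used passes about 1 in 20 sets of independent, normally distributed values. These sets are built from the same 4 counts of each library, so the 4 cannot be set against that rate. Right lung 1 accounted for 3 of the 4. Its miR-132-5p level was 24.3 CPM, against 5.82 to 8.28 CPM in the other lungs. Its log2 ratio of miR-132-5p to miR-132-3p was 6.99, against -0.53 to 1.03, and its log2 ratio of miR-212-3p to miR-132-3p was 6.79, against 1.36 to 3.17. Both ratios have a miR-132-3p count of 0 below the line, so their size depends on the 0.5 added. In the same library miR-212-3p, at 21.2 CPM, and miR-212-5p, at 19.3 CPM, lay within the range of the other lungs, 17.8 to 28.7 CPM and 7.05 to 25.2 CPM.

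The fourth was miR-212-5p in right testicle 1, at 42.3 CPM against 12.6 to 20.4 CPM in the other testicles. That library had the lowest TMM factor of the 18, 0.727. On library totals alone its value was 30.7 CPM, with the next testicle at 18.9 CPM, and it no longer stood apart by the same measure. On those totals miR-132-3p in left testicle 2 did stand apart, at 5.73 CPM with the next testicle at 3.17 CPM. That value rests on 9 counts.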

How the results depend on the processing

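Of 348 recomputed organ differences of single members, 332 kept their direction and their side of the threshold, as did 117 of 121 left-right differences, 236 of 276 ratio differences and 8 of 8 tests of the side difference, whose 2 alternatives (another scaling, a replicate block) were chosen after seeing the data. Many of the ratio recomputations could not change. Leaving out a library of the organ not compared leaves a ratio difference as it was. A ratio difference that was not called also stays so in left libraries alone or right alone, which cannot pass. The count for ratios is therefore no measure of their stability. Log2 differences that changed were as follows, and the cause was not tested unless stated. Library sizes alone gave 0.85 for miR-132-5p eye over testicle, 0.50 for miR-212-3p lung over testicle, and 0.0306 and 0.095 for miR-132-5p and miR-212-3p left over right eye. With left testicle 1 as TMM reference, lung over testicle was 0.63 for miR-212-3p and 0.0452 for miR-212-5p; with left lung 1 it was 0.68 and 0.103, and miR-132-5p eye over testicle was 1.04. Left libraries alone gave 0.81 and 0.0893 for miR-212-3p and miR-212-5p lung over testicle, and right ones -0.31 for miR-212-3p. Leaving out left lung 2 and right lung 1 gave lung over testicle 1.27 for miR-132-3p and 0.53 for miR-212-3p, and left lung 1 and right lung 3 gave 0.57 for miR-212-3p.

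For ratios, left libraries alone and right alone cannot pass (smallest exact permutation p 0.1), and a replicate block did not pass (adjusted p 0.19 in the exact permutation test). With 6 paired differences the smallest exact permutation p of the block is 0.0312 before adjustment over 12 tests. It could pass only if most of the 12 tests reached that value, so it cannot decide these results. Left libraries, right libraries and the block gave -2.18, -3.13 and -2.66 for the miR-132 arms eye over testicle. In the same order, the 5p arms gave 1.24, 1.35 and 1.29 for eye over testicle, and 1.68, 1.09 and 1.38 for lung over testicle. Eye over lung was 0.20 for the miR-132 arms in left libraries and 0.26 for the 5p arms in right ones. Without left lung 2 and right lung 1, the miR-132 arms gave 0.24 for eye over lung and -2.90 for lung over testicle, and the 3p arms 0.0717 and -0.68.

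Leaving out 1 library at a time gave ranges of 0.28 to 0.69 for miR-132-5p eye over testicle, 0.0676 to 0.74 and -0.65 to 0.16 for miR-212-3p and miR-212-5p lung over testicle (both highest without right eye 2), and -0.16 to 0.0437 for miR-212-3p left over right eye. For the miR-132 arms it gave -1.43 to 0.0751 for eye over lung, -2.93 to -2.46 for eye over testicle and -2.73 to -1.23 for lung over testicle. For the miR-212 arms it gave -0.28 to 0.0457 for eye over lung and -0.90 to -0.60 for eye over testicle. For the 3p arms it gave -0.80 to -0.49 for eye over testicle and -0.41 to 0.68 for lung over testicle, and for the 5p arms -0.30 to 0.0792, 1.11 to 1.44 and 1.21 to 1.59 for eye over lung, eye over testicle and lung over testicle.

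Replicate numbers are not stated to mark shared mice, and the data did not show that they pair the libraries: correlations of same-numbered left and right libraries of 1 organ were -0.42 to 0.39, with 4 of 9 pairs over 0.1, and 9 of 18 libraries correlated best with their own number. The block called 0 miRNAs between sides, with 16, 21 and 81 at an unadjusted p under 0.05 in eye, lung and testicle, against 18, 1 and 36 without it. The replicate block changed no call on a member's level between organs. Without the filter on low counts, left against right called 6 miRNAs in eye and 1 in lung, against 0 in each with it.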

Other observations

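MiR-132-3p is generally described as the main product of this locus in mouse brain. In these libraries it was the member with the fewest summed counts in eye, lung and testicle, and in every one of the 18 libraries miR-212-3p had more. The ratio of the 2 was 3.47 in eye, 4.69 in lung and 5.75 in testicle by summed counts. No library was from brain, so that description was not tested here. Counts of different miRNAs also carry any difference in how efficiently each is captured. The treatment of reads that match both 3p arms is not stated.

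The profiles nearest to miR-132-5p included 4 of 5 from mouse chromosome 12, miR-411-5p, miR-541-3p, miR-379-5p and miR-543-5p. Those nearest to miR-212-5p included 3 on that chromosome, miR-433-5p, miR-412-3p and miR-154-5p. For the 3p arms it was 1 of 5 each, miR-412-3p for miR-212-3p and miR-666-3p for miR-132-3p. Of the 534 tested miRNAs with a position in the RefSeq table, 81, or 15.2%, lie on chromosome 12. Those nearest to the 3p arms included both arms of miR-700, on chromosome 4, with miR-700-5p nearest to miR-132-3p and miR-700-3p second to miR-212-3p. These are descriptions of 18 libraries from 3 organs, chosen by the RMS difference, with no test. MiR-541-3p, miR-433-5p and miR-412-3p averaged only 5.98, 5.70 and 6.38 CPM in eye, so the added 1 flattens their fold changes.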
